A study of Mus musculus with 40 samples.

Results

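The comparison concerns 8 RNA sequencing libraries of mouse hematopoietic progenitor cells, out of 40 samples in all, taken as the 4 columns of the genotype FLT3-ITD/Runx1-HET and the 4 of wild type in the count table of animals 14 days old (P14). FLT3-ITD/Runx1-HET cells carry an internal tandem duplication of the receptor tyrosine kinase gene Flt3 together with heterozygous alteration of Runx1. The groups FLT3-ITD alone and Runx1-HET alone, with 4 libraries each at P14, are used where the combined genotype is set against them. Cells of every group were labelled as hematopoietic progenitors or multipotent progenitors (MPP), and wild type has no altered allele in the labels. The labels give neither the kind of Runx1 allele nor the promoter or Cre behind it, nor the sorting gates, the sex of the animals or the strain. Nothing in them ties each library to its own animal. The spread on which the p-values rest is therefore that between libraries and may be technical. It was estimated over all 24 P14 libraries, which also include the groups labelled NHD13 (NUP98-HOXD13) and FLT3-ITD/NHD13.

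FLT3 is the receptor by which early progenitors sense FLT3 ligand, and normal signalling through it favours lymphoid-primed and myeloid progenitors. The internal tandem duplication makes the kinase active without ligand and couples it strongly to the transcription factor STAT5, a path that the normal receptor uses little. RUNX1 is a DNA-binding factor of the blood lineages that acts with its partner CBFB, is needed for blood stem cells to form and for lymphocytes and megakaryocytes to mature, and is altered together with FLT3 in some acute myeloid leukemias.

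The FLT3-ITD/Runx1-HET libraries held 16.2 to 20.7 M counts and the wild-type libraries 13.7 to 22.6 M. Values are given as CPM, counts scaled to a common library size after adjustment by trimmed mean of M-values. Over 12 pairs of libraries within a group the chi-square per degree of freedom was 9.11 to 36.4, so no library was a copy of another. Counts of 4 Y-linked genes exceeded those of Xist in 2 of 4 FLT3-ITD/Runx1-HET libraries, 4 of 4 FLT3-ITD libraries, 1 of 4 Runx1-HET libraries and 1 of 4 wild-type libraries. The progenitor genes Cd34 and Kit had 143942 and 45454 counts over the FLT3-ITD/Runx1-HET libraries, against 169920 and 78552 over the wild-type libraries. Several defining genes of mature cells were at or near 0 over the same libraries, with 0 against 1 count for the T cell gene Cd3e, 0 against 1 for the B cell gene Ms4a1, 1 against 1 for the neutrophil gene Ly6g and 0 against 0 for the hepatocyte gene Alb. Library 3 of FLT3-ITD/Runx1-HET stood furthest from the others of its genotype (mean correlation 0.9799), and library 1 furthest in wild type (0.9775).

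Both targeted genes were read first, in whole-gene counts that do not tell an altered allele from a normal one. Flt3 (ENSMUSG00000042817, GRCm38 chr5:147330741-147400489, minus strand) had 636, 604, 613 and 554 CPM in the FLT3-ITD/Runx1-HET libraries, against 1509, 1363, 1430.2 and 1185 CPM in the wild-type libraries. All 4 FLT3-ITD/Runx1-HET libraries lay below all 4 wild-type libraries, and Flt3 fell by 1.19 on the log2 scale (log2 fold change -1.19 ± 0.09, SE, n = 4 each, edgeR adjusted p = 3.53e-11). Runx1 (ENSMUSG00000022952, GRCm38 chr16:92601466-92826149, minus strand) had 84.7, 75.9, 77.1 and 81.9 CPM in the FLT3-ITD/Runx1-HET libraries, against 39.4, 52.1, 49.7 and 57.5 CPM in the wild-type libraries. Its total count was not reduced in the genotype labelled heterozygous, and it rose by 0.69 ± 0.13 (adjusted p = 0.000196), again with no overlap between the groups. In Runx1-HET libraries Runx1 averaged 52.2 ± 5.10 CPM and in FLT3-ITD libraries 59.3 ± 8.57 CPM (SD, n = 4 each).

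Of 14394 genes tested, 3264 (22.7%) differed between FLT3-ITD/Runx1-HET and wild type in edgeR's quasi-likelihood test at a Benjamini-Hochberg adjusted p under 0.05. Of all tested genes 10.7% were higher (1537 genes) and 12% were lower (1727 genes) in FLT3-ITD/Runx1-HET. Among the called genes 2910 are annotated as protein coding and the median absolute log2 fold change was 0.68. Changes of over 2-fold numbered 615 upward and 548 downward, and those of over 4-fold 184 upward and 244 downward. In 2190 of the called genes the 8 libraries did not overlap between the groups, and 18.6% of all tested genes showed such a separation (8.62% with FLT3-ITD/Runx1-HET higher and 9.96% with it lower). The median log2 fold change over all tested genes was -0.02. The plot of all tested genes shows the spread of these changes over expression level.

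**Figure D1:**
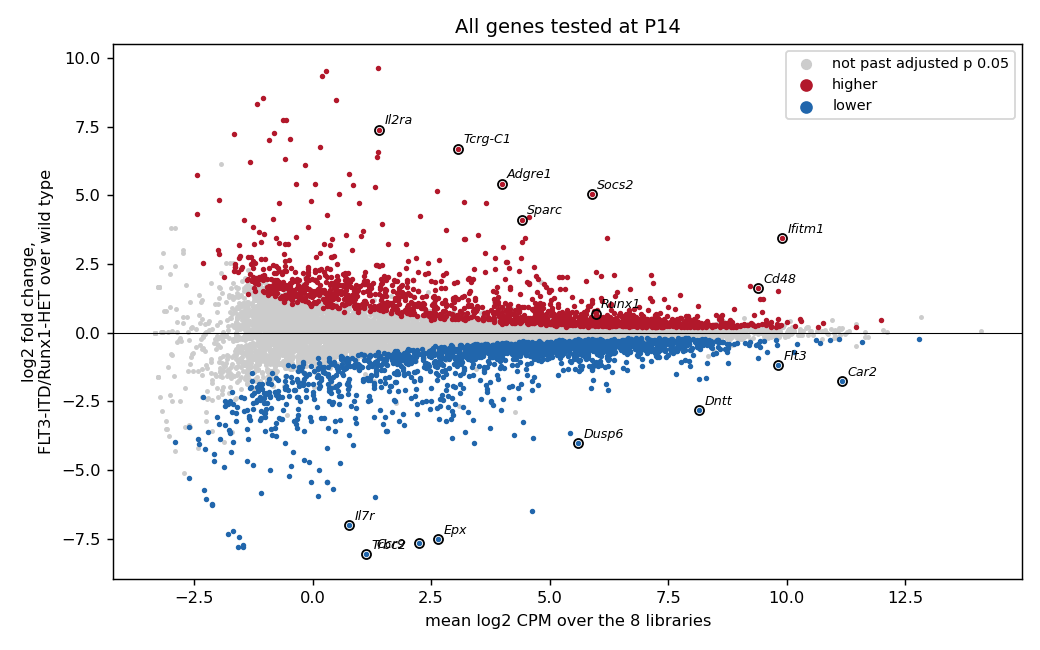
Log2 fold change of FLT3-ITD/Runx1-HET over wild type (y axis) against the mean log2 CPM over the 8 libraries (x axis), 1 point per gene tested, with genes past an adjusted p of 0.05 in red (higher, 1537) and blue (lower, 1727) and 16 genes circled and named. Genes with the largest changes, such as Tcrg-C1 (6.70) and Trbc2 (-8.08), lay at low to middle expression, while the strongly expressed Ifitm1 rose by 3.44 and Car2 fell to a log2 fold change of -1.77.

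The 12 genes with the largest rise among those of at least 2 on the mean log2 CPM scale included a T cell receptor gene, surface receptors, matrix proteins and regulators. Tcrg-C1, a constant segment of the T cell receptor gamma chain whose near-identical copies in the same locus can share reads, had 65.98, 81.1, 105 and 96.4 CPM in the FLT3-ITD/Runx1-HET libraries, against 1.71, 0.562, 0.474 and 0.558 CPM in the wild-type libraries. Adgre1, which encodes the macrophage receptor F4/80, had 91.8, 85.8, 111 and 134 CPM in the FLT3-ITD/Runx1-HET libraries, against 3.78, 1.64, 2.28 and 2.02 CPM in the wild-type libraries. The lowest FLT3-ITD/Runx1-HET library exceeded the highest wild-type library by far in both, with log2 fold changes of 6.70 ± 0.32 (adjusted p = 7.22e-14) and 5.43 ± 0.30 (adjusted p = 1.63e-12). Without wild-type library 1 Tcrg-C1 was at 7.35. Sparc, a secreted matrix glycoprotein, had 87.8, 101, 82.3 and 94.5 CPM in the FLT3-ITD/Runx1-HET libraries, against 3.98, 2.91, 5.38 and 9.13 CPM in the wild-type libraries. The groups were well apart for Sparc, which rose by 4.12 ± 0.49 (adjusted p = 4.1e-06).

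Bhlhe40, a basic helix-loop-helix repressor, had 126, 95.8, 78.3 and 111 CPM in the FLT3-ITD/Runx1-HET libraries, against 7.20, 3.68, 5.64 and 5.86 CPM in the wild-type libraries. It rose by 4.20 ± 0.23 (adjusted p = 4.85e-13) with no overlap. Of the other genes in this group, Timp3, an inhibitor of matrix metalloproteinases, rose by 4.75 ± 0.42, the tetraspanin Tspan7 by 4.73 ± 0.36, the matrix glycoprotein Emilin2 by 4.25 ± 0.40, the Ikaros-family factor Ikzf4 by 3.75 ± 0.25, the small GTPase Rab44 by 3.55 ± 0.27 and Cox4i2, an isoform of a cytochrome c oxidase subunit, by 3.45 ± 0.32. Socs2 (5.05 ± 0.25) is described with the STAT5 targets. AI593442 had 25.6, 149, 24.8 and 30.1 CPM in the FLT3-ITD/Runx1-HET libraries, against 0.0504, 0.460, 3.32 and 2.58 CPM in the wild-type libraries. Its rise of 5.16 ± 1.35 (adjusted p = 0.00966) rested in part on library 2, without which it was 4.06 (adjusted p = 0.0512). Without wild-type library 3 it was 5.95, and DESeq2 gave the gene no adjusted p.

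By the same expression minimum, the 12 genes with the largest fall were led by Ccr9, the receptor for the thymus and gut chemokine CCL25, which had 0.708, 0.184, 0.199 and 0.117 CPM in the FLT3-ITD/Runx1-HET libraries, against 66.2, 82.6, 58.6 and 55.3 CPM in the wild-type libraries. Its highest FLT3-ITD/Runx1-HET value was below 1 CPM and its log2 fold change was -7.66 ± 0.48 (adjusted p = 1.2e-10), or -8.56 without FLT3-ITD/Runx1-HET library 1. The eosinophil granule genes Epx and Prg2 followed and are given with the markers of other cells. Postn, a matricellular protein, had 3.82, 4.48, 0.747 and 2.40 CPM in the FLT3-ITD/Runx1-HET libraries, against 38.7, 58.96, 55.3 and 32.9 CPM in the wild-type libraries. Sdc4, a cell-surface heparan sulfate proteoglycan, had 7.98, 7.91, 3.94 and 7.27 CPM in the FLT3-ITD/Runx1-HET libraries, against 112, 84.4, 99.7 and 89.5 CPM in the wild-type libraries. Neither gene had overlapping groups, and they fell with log2 fold changes of -4.03 ± 0.31 and -3.84 ± 0.30 (adjusted p = 7.74e-10 and 6.26e-09). Rgs1, which shortens G protein signals, fell (-3.74 ± 0.36), as did the small GTP-binding protein gene Gem (-3.64 ± 0.19), Tnip3, a partner of the NF-kappaB inhibitor A20 (-3.46 ± 0.21), and Wfdc17, a small WAP-domain protein (-3.25 ± 0.21). The remaining 3, Dusp6, Etv5 and Ccnd1, belong to the signalling lists below.

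The plot of gene lists shows the share of members that passed in either direction, without the lists of cell type markers and sex-linked genes. Counts in the lists are read against the 10.7% higher and 12% lower over all genes. The lists were chosen with earlier results of these data known, so these shares are a description and not a test.

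**Figure D2:**
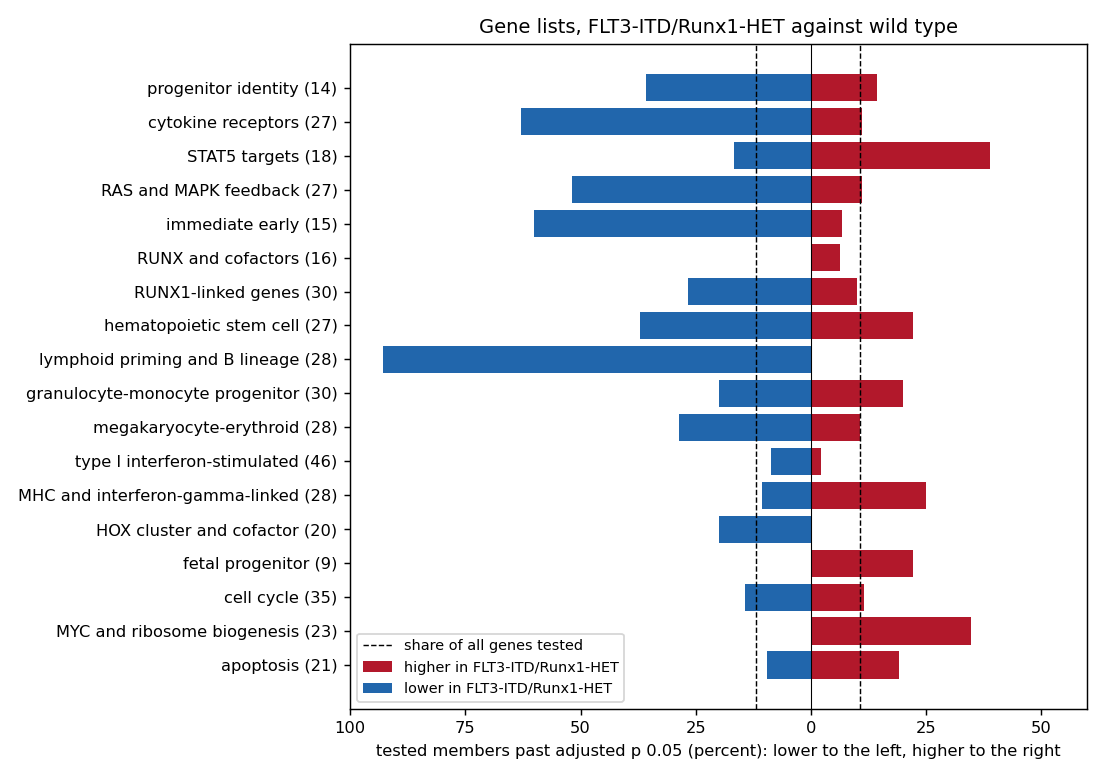
Share of tested members of each drawn gene list (percent, x axis) that passed an adjusted p of 0.05 in FLT3-ITD/Runx1-HET against wild type. Lower members point to the left and higher members to the right, with the number of tested members in brackets. Dashed lines mark the shares over all tested genes (12% lower, 10.7% higher). The lists of cell type markers and sex-linked genes are not drawn. The lymphoid list (26 of 28 lower), the cytokine receptors (17 of 27 lower) and the immediate early genes (9 of 15 lower) reached furthest to the left. The STAT5 targets (7 of 18 higher) and MYC and ribosome biogenesis genes (8 of 23 higher) reached furthest to the right.

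Genes of lymphoid priming and the B lineage were lower almost throughout in FLT3-ITD/Runx1-HET. Of 30 members, Ikzf3 and Pax5 were under the filter on low counts. Of 28 tested members 26 fell and the other 2, Vpreb1 and Tcf3, did not pass edgeR's test (-1.26 and -0.23). The median log2 fold change was -1.27, against -0.02 over all tested genes. In bulk RNA fewer lymphoid-primed cells and less of these RNAs per cell cannot be told apart. The summed level of the list was 2351 to 2621 CPM in the FLT3-ITD/Runx1-HET libraries, against 4425 to 5031 CPM in wild type.

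Rag1, which with Rag2 cuts DNA to rearrange the antigen receptor genes, and Il7r, the interleukin 7 receptor chain on which mouse lymphocyte development depends, fell to a few counts. Their promoter windows, from 250 bases before to 50 bases after the start site in RefSeq annotation of GRCm38.p6, are shown because they hold the core motif of the altered factor. Capitals mark the RUNX core TGTGGT, searched on both strands, which begins at bases 170 and 184 of the Rag1 window and at base 254 of the Il7r window. In the Il7r window capitals also mark the STAT core TTCNNNGAA at base 109, and none of the marked motifs overlap. Over all 32851 windows, 16.8% hold the RUNX core and 8.3% the STAT core. Of the 26 list members that fell 19 have a window, and 7 of these hold the RUNX core in any of their windows. Counted by gene in this way, 15.6% of tested genes with a window hold the RUNX core and 8.35% the STAT core. Among all genes lower than in wild type the RUNX share is 16.8%. These shares were not tested against each other. The windows were picked with their motifs known and a match describes letters only. The Rag1 window is chr2:101649483-101649782, minus strand, and the Il7r window is chr15:9529827-9530126, minus strand.
Rag1: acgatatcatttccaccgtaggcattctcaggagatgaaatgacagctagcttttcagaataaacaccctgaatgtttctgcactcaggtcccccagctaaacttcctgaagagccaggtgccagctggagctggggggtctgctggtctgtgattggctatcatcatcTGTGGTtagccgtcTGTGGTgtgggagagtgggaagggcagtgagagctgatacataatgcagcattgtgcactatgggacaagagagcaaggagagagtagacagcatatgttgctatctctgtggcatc
Il7r: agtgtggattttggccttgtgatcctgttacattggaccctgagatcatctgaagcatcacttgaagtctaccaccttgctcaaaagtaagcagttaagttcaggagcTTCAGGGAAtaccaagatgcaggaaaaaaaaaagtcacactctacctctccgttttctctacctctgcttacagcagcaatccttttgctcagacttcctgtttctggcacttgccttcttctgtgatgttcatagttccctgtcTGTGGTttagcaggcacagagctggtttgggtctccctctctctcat

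Rag1 had 0.142, 0.245, 0.0498 and 0.176 CPM in the FLT3-ITD/Runx1-HET libraries, against 3.63, 6.03, 6.16 and 10.9 CPM in the wild-type libraries. Every FLT3-ITD/Runx1-HET library was below every wild-type library, with a log2 fold change of -5.42 ± 0.84 (adjusted p = 8.54e-05). Il7r had 0, 0.123, 0.149 and 0.176 CPM in the FLT3-ITD/Runx1-HET libraries, against 17.8, 12.1, 14.00 and 14.6 CPM in the wild-type libraries. One of its 4 FLT3-ITD/Runx1-HET libraries held no count, the others were far below wild type, and it fell with a log2 fold change of -7.01 ± 0.54 (adjusted p = 8.89e-10). Rag2 had 5.29, 6.07, 6.33 and 6.62 CPM in the FLT3-ITD/Runx1-HET libraries, against 39.7, 20.6, 21.8 and 26.2 CPM in the wild-type libraries and fell less (-2.16 ± 0.28, adjusted p = 5.01e-06).

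Dntt, which encodes the terminal transferase that adds bases at antigen receptor joints, was more abundant, with 103, 145, 95.4 and 95.2 CPM in the FLT3-ITD/Runx1-HET libraries, against 928, 561, 771 and 823 CPM in the wild-type libraries. The groups did not overlap and Dntt fell with a log2 fold change of -2.81 ± 0.21 (adjusted p = 1.97e-09). Ebf1, a master factor of the B lineage, had 0.236, 2.51, 1.45 and 1.05 CPM in the FLT3-ITD/Runx1-HET libraries, against 9.21, 12.3, 12.8 and 18.1 CPM in the wild-type libraries. It was apart from wild type in all 4 libraries (-3.36 ± 0.70, adjusted p = 0.00172). Ly6d, a surface marker of B-committed lymphoid progenitors in the mouse, fell with a log2 fold change of -5.69 ± 1.14 (adjusted p = 0.00123), or -6.56 without FLT3-ITD/Runx1-HET library 2. Moderately expressed members chosen after their values were seen moved less. The log2 fold change was -1.21 ± 0.14 for the receptor Notch1, -1.20 ± 0.12 for the chromatin organizer Satb1 and -1.87 ± 0.16 for the cytokine subunit Il12a, and all 3 passed.

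**Figure D3:**
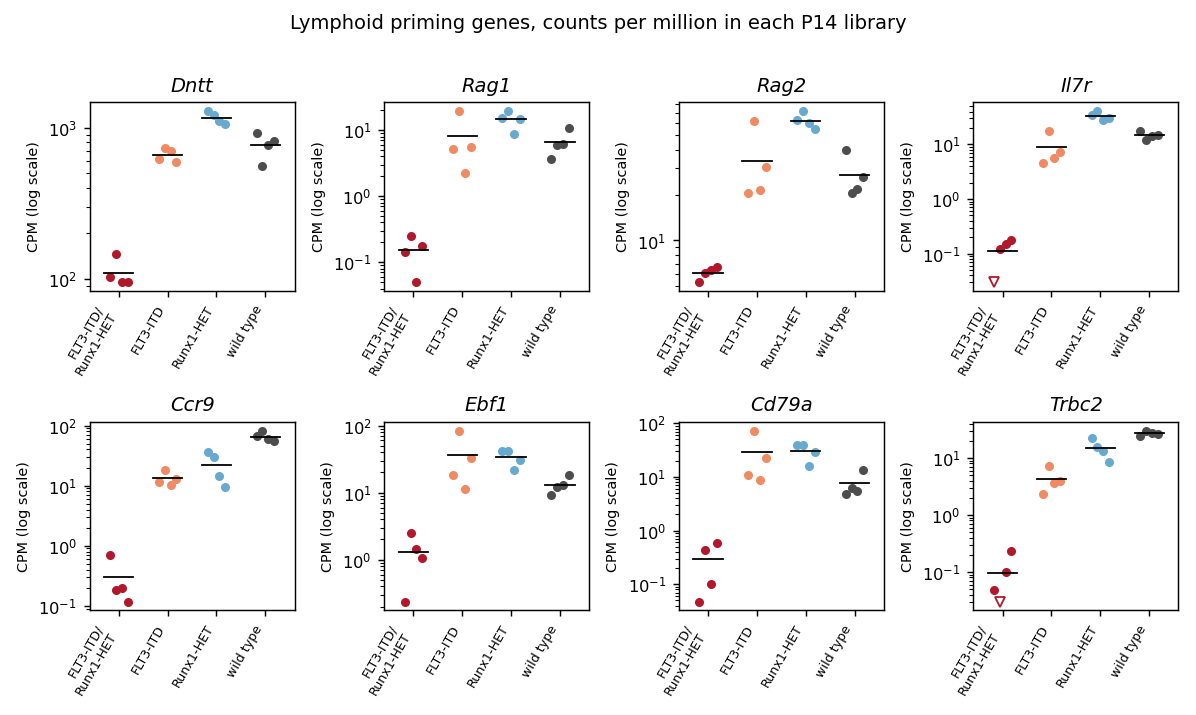
CPM on a log scale (y axis) of 8 genes of the lymphoid and T cell lists in each P14 library of FLT3-ITD/Runx1-HET, FLT3-ITD, Runx1-HET and wild type (x axis), with 1 point per library, a black bar at the group mean and open triangles at the foot for libraries with 0 counts. The FLT3-ITD/Runx1-HET libraries lay lowest in all 8 panels, for example at 95.2 to 145 CPM of Dntt against 561 to 928 CPM in wild type.

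Among T and NK cell markers 5 of 9 tested members fell, and among mature B and plasma cell markers 5 of 7. The T and NK markers did not fall in sum, at 273.9 to 395.6 CPM in FLT3-ITD/Runx1-HET, against 243.2 to 326 CPM in wild type. The most abundant of them, the granule protein gene Nkg7 (0.49) and the coreceptor gene Cd4 (-0.33), did not pass. The count of T and NK markers that fell depended on weak genes, being 1 with a minimum mean of 1 CPM, 2 when the compared groups were fitted alone and 3 without wild-type library 2. Trbc2, a constant segment of the T cell receptor beta chain that is nearly identical to Trbc1 and can share its reads, had 0.0472, 0, 0.0997 and 0.234 CPM in the FLT3-ITD/Runx1-HET libraries, against 24.4, 30.3, 27.05 and 26.4 CPM in the wild-type libraries. The groups were far apart, with a log2 fold change of -8.08 ± 0.45 (adjusted p = 2.99e-13), or -8.86 without FLT3-ITD/Runx1-HET library 4. Trbc2 had 7 counts over the FLT3-ITD/Runx1-HET libraries, against 2083 over wild type, so the size of its fall and its SE are approximate. Trbc1 had 1 count over the FLT3-ITD/Runx1-HET libraries, against 45 over wild type, a ratio of wild type to FLT3-ITD/Runx1-HET of 43.6 (95% counting interval 7.44 to 1760). That 1 count lay in FLT3-ITD/Runx1-HET library 2, and without it Trbc1 was at least 11.4-fold lower, taking 3 counts over the group as the floor.

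In the B lineage, the signalling chain Cd79a had 0.0472, 0.429, 0.0997 and 0.586 CPM in the FLT3-ITD/Runx1-HET libraries, against 4.73, 6.29, 5.56 and 13.7 CPM in the wild-type libraries. It lay below wild type in every library (-4.75 ± 1.03, adjusted p = 0.0024), or -5.36 without FLT3-ITD/Runx1-HET library 4. Mzb1, a chaperone of immunoglobulin assembly, had 5.57, 3.19, 1.94 and 3.63 CPM in the FLT3-ITD/Runx1-HET libraries, against 23.4, 39.4, 29.3 and 38.00 CPM in the wild-type libraries. It fell without overlap (-3.17 ± 0.48, adjusted p = 7.83e-05), and so did Fcer2a, the low-affinity IgE receptor CD23 (-2.69 ± 0.44, adjusted p = 3.82e-05). The summed B and plasma cell markers were at 9.71 to 14.9 CPM in FLT3-ITD/Runx1-HET, 36.4 to 184 CPM in FLT3-ITD and 47.3 to 81.3 CPM in wild type. The kinase Blk had 0 counts in all 4 FLT3-ITD/Runx1-HET libraries, against 37 counts over wild type, and was at least 12-fold lower, by the same floor.

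STAT5 carries signals of cytokine receptors to the nucleus, and its target genes include its own inhibitors of the SOCS family. Of 18 tested members of the STAT5 target list 7 rose and 3 fell in FLT3-ITD/Runx1-HET, with a median log2 fold change of 0.501. Cish, a SOCS-family inhibitor singled out after its values were seen, holds 2 STAT cores around its start site, and its window (chr9:107296409-107296708, plus strand) is shown for them. Of the 7 members that rose, 5 have a window and only that of Cish holds the core. Capitals mark TTCNNNGAA at bases 251 and 262.
Cish: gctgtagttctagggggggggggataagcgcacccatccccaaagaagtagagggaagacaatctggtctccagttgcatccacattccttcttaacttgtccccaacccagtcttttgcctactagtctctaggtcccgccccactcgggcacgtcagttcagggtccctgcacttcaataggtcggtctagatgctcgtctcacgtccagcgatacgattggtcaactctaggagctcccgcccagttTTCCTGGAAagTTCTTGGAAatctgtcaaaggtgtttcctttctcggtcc

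Cish had 107, 148, 147 and 151 CPM in the FLT3-ITD/Runx1-HET libraries, against 37.97, 22.5, 29.4 and 28.7 CPM in the wild-type libraries. It rose by 2.22 ± 0.15 (adjusted p = 7.18e-12), with the lowest FLT3-ITD/Runx1-HET library well above the highest of wild type. Socs2, the most changed inhibitor, had 353, 349.8, 315 and 354 CPM in the FLT3-ITD/Runx1-HET libraries, against 13.4, 9.10, 7.88 and 11.3 CPM in the wild-type libraries. Its libraries were closely grouped and it rose by 5.05 ± 0.25 (adjusted p = 2.84e-12). Il2ra, the alpha chain of the interleukin 2 receptor (CD25), had 32.1, 22.4, 28.9 and 35.4 CPM in the FLT3-ITD/Runx1-HET libraries, against 0.352, 0.205, 0 and 0.139 CPM in the wild-type libraries. It was close to undetected in wild type and rose by 7.40 ± 0.52 (adjusted p = 5.67e-11), or 8.05 without wild-type library 1.

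Other members rose by less. Id1, an inhibitor of basic helix-loop-helix factors, had 32.4, 34.7, 43.7 and 42.6 CPM in the FLT3-ITD/Runx1-HET libraries, against 2.62, 7.21, 5.04 and 8.79 CPM in the wild-type libraries (2.71 ± 0.24, adjusted p = 3.76e-09). Cdkn1a, the cell cycle inhibitor p21, had 51.3, 44.8, 35.2 and 48.5 CPM in the FLT3-ITD/Runx1-HET libraries, against 8.36, 11.5, 7.71 and 10.6 CPM in the wild-type libraries (2.24 ± 0.19, adjusted p = 5.45e-10). The kinases Pim1 and Pim2, named after their values were seen, rose by 1.39 ± 0.15 and 1.66 ± 0.18. Against these stood Bcl6, a repressor of transcription, with 0.283, 0.674, 0.299 and 0.234 CPM in the FLT3-ITD/Runx1-HET libraries, against 2.06, 3.22, 4.82 and 2.72 CPM in the wild-type libraries. It fell with a log2 fold change of -3.11 ± 0.40 (adjusted p = 1.3e-06), without overlap. Ccnd1, a D-type cyclin, fell (-3.82 ± 0.27, adjusted p = 8.51e-11), as did Ccnd2 (-0.44 ± 0.09). Among the 8 members that did not pass were Socs1 (1.19), Mcl1 (-0.04) and Lcn2 (-1.97).

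The RAS and MAPK feedback list went mostly the other way. It holds phosphatases, Sprouty and Spred inhibitors and ETS factors that ERK activity induces, and RAS regulators. Of 27 tested members 14 fell and 3 rose, with a median log2 fold change of -0.747. Dusp6, the phosphatase that removes phosphate from ERK, had 17.7, 11.1, 6.98 and 13.8 CPM in the FLT3-ITD/Runx1-HET libraries, against 270.5, 210.2, 169 and 162 CPM in the wild-type libraries. The highest of its FLT3-ITD/Runx1-HET libraries was far below the lowest of wild type (-4.03 ± 0.29, adjusted p = 3.76e-09). Etv5, an ETS factor, had 4.63, 1.72, 2.04 and 2.29 CPM in the FLT3-ITD/Runx1-HET libraries, against 22.96, 40.4, 38.2 and 32.98 CPM in the wild-type libraries and fell (-3.63 ± 0.26, adjusted p = 5.29e-11). Spry4 fell (-3.57 ± 0.62, adjusted p = 0.000111) and so did Spry2, named after its values were seen (-1.20 ± 0.25, adjusted p = 0.00115).

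Of the exchange factors that load RAS with GTP, some fell and some rose. Rasgrp3 fell (-3.20 ± 0.27, adjusted p = 5.6e-10). Rasgrf2 had 13.2, 13.8, 17.4 and 12.4 CPM in the FLT3-ITD/Runx1-HET libraries, against 0.151, 0.256, 0.431 and 0.628 CPM in the wild-type libraries. It rose by 5.30 ± 0.38 (adjusted p = 2.2e-11). Rasgrp1, the exchange factor best known from T cells, had 310 counts over the FLT3-ITD/Runx1-HET libraries, against 1 over wild type, a ratio of 320 (95% counting interval 57.0 to 12700). The 1 wild-type count lay in library 2, and without that library Rasgrp1 was at least 79.5-fold higher, taking 3 counts over the group as the floor. The phosphatase Dusp5 also rose (1.19 ± 0.20, adjusted p = 5.87e-05). The RAS genes Nras and Hras did not pass (-0.03 and -0.34).

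Immediate early genes, which are switched on within minutes of a signal and also by cell handling, were lower in 9 of 15 tested members and higher in 1. The median log2 fold change was -0.762. Egr1, a zinc finger factor, had 0.991, 0.184, 0.997 and 2.11 CPM in the FLT3-ITD/Runx1-HET libraries, against 7.50, 12.3, 8.05 and 8.37 CPM in the wild-type libraries. The groups did not overlap and it fell with a log2 fold change of -3.07 ± 0.43 (adjusted p = 7.26e-06). The orphan nuclear receptor Nr4a1 fell (-1.94 ± 0.26, adjusted p = 2.36e-06) and the AP-1 member Jun fell (-1.63 ± 0.45, adjusted p = 0.0104), while Jund rose (0.98 ± 0.25, adjusted p = 0.00457). Fos was at -2.57 and did not pass. The summed level was 172.8 to 222.5 CPM in FLT3-ITD/Runx1-HET, 197.6 to 213.1 CPM in FLT3-ITD and 315.4 to 425.1 CPM in wild type. Time from tissue to lysis is not given in the labels, and its part in these genes was not tested.

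**Figure D4:**
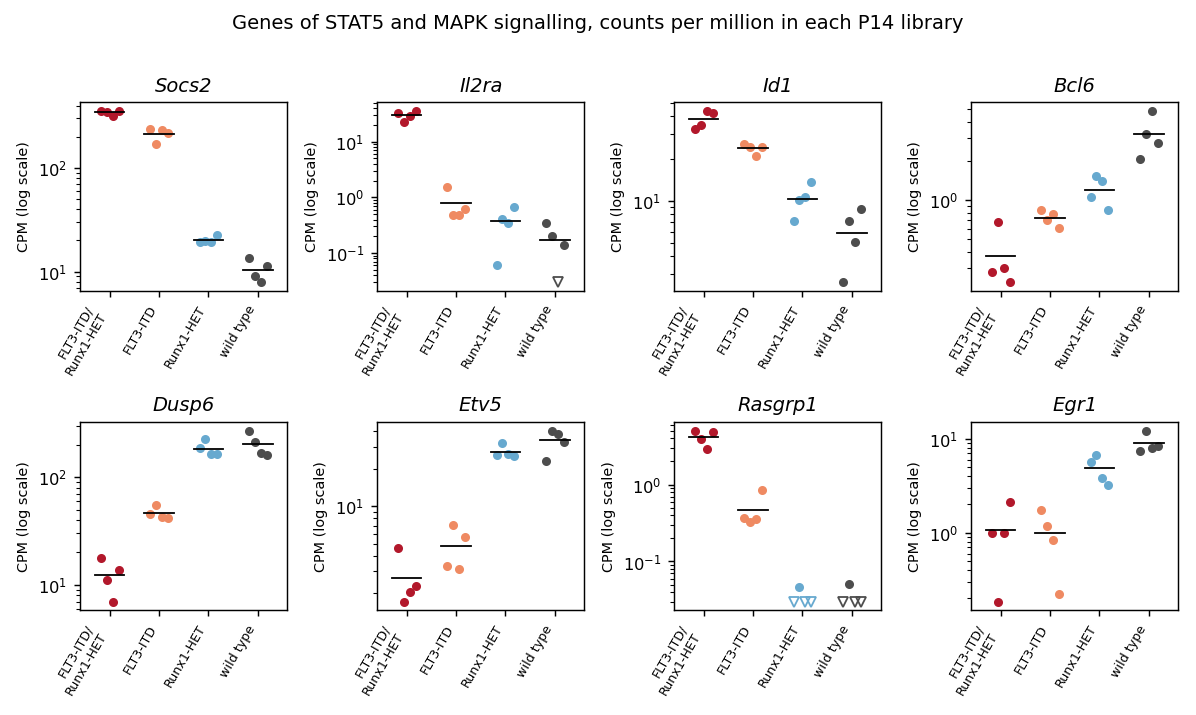
CPM on a log scale (y axis) of 8 genes of the STAT5, RAS and MAPK and immediate early lists in each P14 library of FLT3-ITD/Runx1-HET, FLT3-ITD, Runx1-HET and wild type (x axis), with 1 point per library, a black bar at the group mean and open triangles at the foot for libraries with 0 counts (no bar where the mean lies below the foot). Socs2, Il2ra, Id1 and Rasgrp1 were highest and Dusp6 lowest in every FLT3-ITD/Runx1-HET library. Tested against FLT3-ITD, Id1 did not pass in the main fit, and Socs2 no longer passed in 10 of 16 alternatives. Socs2 had 17445 unscaled counts over FLT3-ITD, against 25543 over FLT3-ITD/Runx1-HET and 789 over wild type. Bcl6 and Etv5 were lowest in FLT3-ITD/Runx1-HET by group mean but overlapped with FLT3-ITD or Runx1-HET. Egr1 was about as low in FLT3-ITD (0.22 to 1.75 CPM) as in FLT3-ITD/Runx1-HET (0.18 to 2.11 CPM).

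Of 27 cytokine and growth factor receptor genes 17 fell and 3 rose, with a median log2 fold change of -0.668. Besides Il7r and Flt3, Kit, the receptor for stem cell factor, had 682, 707, 557 and 486 CPM in the FLT3-ITD/Runx1-HET libraries, against 1169.5, 1046, 1045 and 739.6 CPM in the wild-type libraries. It fell with a log2 fold change of -0.72 ± 0.12 (adjusted p = 8.56e-05), and the groups were apart. Tek, the angiopoietin receptor TIE2, had 6.28, 9.38, 5.58 and 4.81 CPM in the FLT3-ITD/Runx1-HET libraries, against 28.00, 17.03, 21.7 and 18.6 CPM in the wild-type libraries and fell (-1.72 ± 0.26, adjusted p = 1.91e-05). Il1r1, the interleukin 1 receptor, had 24.7, 18.3, 16.5 and 27.7 CPM in the FLT3-ITD/Runx1-HET libraries, against 37.5, 65.6, 74.4 and 77.96 CPM in the wild-type libraries and fell (-1.55 ± 0.20, adjusted p = 1.2e-06). Epor, the erythropoietin receptor, fell (-2.11 ± 0.34, adjusted p = 3.96e-05). Of members named after their values were seen, the receptor for insulin-like growth factor Igf1r was at -0.67 ± 0.17, the TGF-beta receptor Tgfbr2 at -0.88 ± 0.14, the TNF receptor Tnfrsf1b at -0.97 ± 0.11 and the interferon-gamma receptor Ifngr1 at -0.67 ± 0.10. All 4 passed the test. Rising against this were Csf2rb, the shared beta chain of the receptors for IL-3, IL-5 and GM-CSF, with 215, 197, 227 and 187 CPM in the FLT3-ITD/Runx1-HET libraries, against 112, 118, 141 and 129.7 CPM in the wild-type libraries (0.72 ± 0.11, adjusted p = 1.64e-05), and its mouse paralog Csf2rb2 (0.82 ± 0.16, adjusted p = 0.000477). The sequences of the pair are similar enough to share reads. Il18r1 rose as well (1.28 ± 0.26, adjusted p = 0.000557).

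Among RUNX factors and cofactors Runx1 was the 1 member of 16 tested to rise and the other 15 did not pass. By unadjusted p under 0.05, 3 were lower, and DESeq2 called 0 lower, as edgeR did. EdgeR called 3 lower without wild-type library 1 and 1 lower without FLT3-ITD/Runx1-HET library 2 or 4, and it called 2 higher without FLT3-ITD/Runx1-HET library 1 or 3 or wild-type library 2. It also called 2 higher with upper quartile scaling or with the compared groups fitted alone, and 1 lower with the replicate block. Cbfb, the partner that stabilizes RUNX binding, was at 0.13, Runx2 at -0.25 and Runx3 at -0.15. A further list holds 30 genes linked to RUNX1 in earlier work on blood cells. There 3 rose and 8 fell, with a median of -0.27. The count of higher members was 1 when the compared groups were fitted alone and 5 without FLT3-ITD/Runx1-HET library 3.

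Myh10, a non-muscle myosin heavy chain that RUNX1 is known to silence in the megakaryocyte lineage, had 35.3, 34.8, 24.96 and 25.6 CPM in the FLT3-ITD/Runx1-HET libraries, against 2.32, 2.81, 2.07 and 4.39 CPM in the wild-type libraries. It was above wild type in every library and rose by 3.40 ± 0.29 (adjusted p = 5.76e-10). Mpo, the myeloperoxidase of the neutrophil lineage, had 787, 1739, 3089 and 1043 CPM in the FLT3-ITD/Runx1-HET libraries, against 784, 457, 490.5 and 581 CPM in the wild-type libraries. It rose by 1.53 ± 0.39 (adjusted p = 0.00759), with library 3 highest and library 1 barely above the highest wild-type library. The adjusted p was 0.077 when the compared groups were fitted alone. Angpt1, the ligand of TIE2 and named after its values were seen, had 120.0, 136, 135 and 98.9 CPM in the FLT3-ITD/Runx1-HET libraries, against 446, 306, 351 and 291 CPM in the wild-type libraries and fell (-1.51 ± 0.14, adjusted p = 1.72e-08). Trib2, a pseudokinase, fell (-3.29 ± 0.48, adjusted p = 2.14e-05), as did Rag1, Ebf1 and Blk above.

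Hematopoietic stem cell genes moved both ways, with 6 of 27 tested members higher, 10 lower and a median of -0.235. Ifitm1, an interferon-induced transmembrane protein that is abundant in stem cells, had 2952, 3115, 3289.6 and 3385 CPM in the FLT3-ITD/Runx1-HET libraries, against 263, 288, 280.3 and 340.3 CPM in the wild-type libraries. It rose without overlap, by 3.44 ± 0.11 (adjusted p = 1.36e-18). Cdkn1c, the cell cycle inhibitor p57, had 27.8, 21.3, 15.7 and 25.2 CPM in the FLT3-ITD/Runx1-HET libraries, against 11.1, 14.7, 6.37 and 6.42 CPM in the wild-type libraries and rose (1.22 ± 0.21, adjusted p = 0.000104). Mycn, a MYC-family factor, rose (0.82 ± 0.17, adjusted p = 0.00102), as did the leukemia fusion partner Mllt3, named after its values were seen (0.59 ± 0.11, adjusted p = 0.000379).

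In the opposite direction, Ndn, a growth suppressor, had 4.29, 3.86, 3.34 and 2.46 CPM in the FLT3-ITD/Runx1-HET libraries, against 19.6, 25.7, 23.4 and 22.4 CPM in the wild-type libraries and fell without overlap (-2.70 ± 0.27, adjusted p = 1.09e-08). Robo4, a guidance receptor of endothelium and stem cells, fell (-1.39 ± 0.17, adjusted p = 3.45e-07, named after its values were seen). Hoxb5, a marker of long-term stem cells in the mouse, had 3 counts over the FLT3-ITD/Runx1-HET libraries, against 44 over wild type, a ratio of wild type to FLT3-ITD/Runx1-HET of 14.2 (95% counting interval 4.56 to 71.6), or 32.9 without FLT3-ITD/Runx1-HET library 4. The stem cell markers Procr (-0.24), Slamf1 (-0.05), Mecom (-0.24) and Fgd5 (0.39) did not pass. Cd34 was at -0.19 and did not pass, whereas Cd48, a SLAM-family surface protein absent from most stem cells, had 1082, 1237, 1310.2 and 1197 CPM in the FLT3-ITD/Runx1-HET libraries, against 543, 339.8, 325 and 358 CPM in the wild-type libraries. Its 4 FLT3-ITD/Runx1-HET libraries were all above those of wild type (1.62 ± 0.14, adjusted p = 3.55e-09).

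Of 20 tested HOX genes and cofactors 4 fell, and edgeR called 0 higher, as did DESeq2, with 1 higher at an unadjusted p under 0.05. The number that fell was 7 without wild-type library 1, and 1 rose without wild-type library 2. Hoxa9, a homeobox gene that sustains progenitor growth, had 45.5, 43.3, 35.5 and 45.5 CPM in the FLT3-ITD/Runx1-HET libraries, against 68.03, 65.96, 73.6 and 73.2 CPM in the wild-type libraries and fell (-0.73 ± 0.11, adjusted p = 8.63e-06). Its cofactor Meis1 had 519, 492, 522 and 438 CPM in the FLT3-ITD/Runx1-HET libraries, against 707, 589, 660.0 and 570.5 CPM in the wild-type libraries, a smaller fall with no overlap (-0.36 ± 0.09, adjusted p = 0.00365). Among 9 tested fetal progenitor genes 2 rose. Hmga2, a chromatin protein of fetal stem cells, had 239.9, 222, 172 and 222 CPM in the FLT3-ITD/Runx1-HET libraries, against 82.7, 121, 87.9 and 97.1 CPM in the wild-type libraries and rose (1.14 ± 0.14, adjusted p = 6.06e-07), and Mycn was the other. Lin28b was at -0.19 and did not pass.

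Granulocyte-monocyte progenitor genes were split, with 6 of 30 higher, 6 lower and a median of -0.217. Their summed level was 2851, 4345, 6564 and 3471 CPM in FLT3-ITD/Runx1-HET libraries 1 to 4, against 3385, 2512, 2490 and 2853 CPM in wild type, so library 3 was the highest. Ctsg, the granule protease cathepsin G, had 33.8, 47.2, 106 and 45.3 CPM in the FLT3-ITD/Runx1-HET libraries, against 6.65, 9.82, 5.12 and 13.9 CPM in the wild-type libraries (2.74 ± 0.41, adjusted p = 7.57e-05), and Cst7, an inhibitor of lysosomal proteases, had 73.4, 105, 153 and 96.2 CPM in the FLT3-ITD/Runx1-HET libraries, against 48.2, 39.99, 41.4 and 50.3 CPM in the wild-type libraries (1.25 ± 0.14, adjusted p = 6.6e-08). Among the members that fell, Itgam, the integrin CD11b, had 24.1, 27.8, 31.5 and 20.2 CPM in the FLT3-ITD/Runx1-HET libraries, against 55.03, 60.3, 58.8 and 46.1 CPM in the wild-type libraries (-1.09 ± 0.13, adjusted p = 4.19e-07). Ncf1, a subunit of the phagocyte oxidase, fell (-0.98 ± 0.12, adjusted p = 6.82e-07), and the receptors Csf3r and Csf1r fell (-0.70 ± 0.18 and -0.70 ± 0.17). The elastase gene Elane (-0.19) and the master factor Cebpa (-0.81) did not pass. When the compared groups were fitted alone 3 members were higher.

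Of 28 tested megakaryocyte and erythroid genes 8 fell and 3 rose, with a median of -0.048. In sum they were at 2888 to 3142 CPM in FLT3-ITD/Runx1-HET, against 5723 to 6521 CPM in wild type. Without Car2 the sums were 1672 to 2006 CPM in FLT3-ITD/Runx1-HET, against 1719 to 1886 CPM in wild type, and overlapped. The count of higher members was 1 when the compared groups were fitted alone, with no filter on low counts, without FLT3-ITD/Runx1-HET library 2, and without wild-type library 3 or 4. Car2, a carbonic anhydrase that is abundant in early erythroid-biased progenitors, had 1364, 1167, 1136 and 1359.8 CPM in the FLT3-ITD/Runx1-HET libraries, against 4004, 4489.8, 4662 and 4045 CPM in the wild-type libraries. It fell without overlap (-1.77 ± 0.11, adjusted p = 6.13e-13). Gata1, the master factor of the erythroid and megakaryocyte lineages and named after its values were seen, had 5.66, 4.91, 6.93 and 5.63 CPM in the FLT3-ITD/Runx1-HET libraries, against 13.9, 8.90, 12.6 and 9.13 CPM in the wild-type libraries and fell (-0.95 ± 0.19, adjusted p = 0.000695). Selp, the platelet adhesion receptor P-selectin, fell (-2.01 ± 0.23, adjusted p = 2.03e-07). The megakaryocyte genes Itga2b (0.11) and Pf4 (-1.001) did not pass. The tetraspanin Cd9 rose slightly (0.46 ± 0.12, adjusted p = 0.0069).

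Of 46 type I interferon-stimulated genes 4 were lower and 1 higher, with a median of -0.198, against -0.02 over all tested genes. The summed level was 3464, 4473, 5916 and 3965 CPM in FLT3-ITD/Runx1-HET, against 5782, 3429, 3478 and 4433 CPM in wild type, with library 3 of the first and library 1 of the second high. Without FLT3-ITD/Runx1-HET library 3 the number of lower members was 12, and without wild-type library 1 the number of higher members was 4. Ifitm3, a restriction factor, had 882, 1065, 1283 and 1119 CPM in the FLT3-ITD/Runx1-HET libraries, against 586, 362, 383 and 524 CPM in the wild-type libraries and rose (1.23 ± 0.13, adjusted p = 1.02e-07). Trim25, a ubiquitin ligase of the RIG-I pathway, fell (-0.35 ± 0.10, adjusted p = 0.0131), and Irf9, the DNA-binding part of the interferon-activated complex, fell (-0.65 ± 0.18, adjusted p = 0.00959, or 0.103 when the compared groups were fitted alone). Of 28 antigen presentation and interferon-gamma-linked genes 7 were higher and 3 lower. The higher count was 4 without FLT3-ITD/Runx1-HET library 1 or 3 or in a fit of the compared groups alone, and 2 without wild-type library 3, and the lower count was 1 without FLT3-ITD/Runx1-HET library 2 or wild-type library 4 and 5 without FLT3-ITD/Runx1-HET library 3. B2m, the shared light chain of MHC class I, was among those that rose (0.48 ± 0.10, adjusted p = 0.000525).

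Of 23 MYC and ribosome biogenesis genes 8 rose, and edgeR called 0 lower, as did DESeq2, with 0 lower at an unadjusted p under 0.05. The median was 0.219 and the changes were small. Npm1, nucleophosmin, had 1489, 1509, 1428 and 1465 CPM in the FLT3-ITD/Runx1-HET libraries, against 1257, 1049, 939.6 and 949.8 CPM in the wild-type libraries (0.49 ± 0.09, adjusted p = 0.000118), and Srm, spermidine synthase, rose by 0.62 ± 0.14 (adjusted p = 0.00141). Myc itself was at 0.03 and did not pass. Without wild-type library 3, or with the compared groups fitted alone, 5 members rose. In the cell cycle list 4 of 35 rose and 5 fell, with a median of -0.074. Cdk6, a kinase of the G1 phase, had 969.8, 1145, 1153 and 1157 CPM in the FLT3-ITD/Runx1-HET libraries, against 549, 499, 410.3 and 442 CPM in the wild-type libraries and rose (1.22 ± 0.14, adjusted p = 1.68e-07). Its partners Ccnd1 and Ccnd2 fell, and the inhibitors were split, with Cdkn1a and Cdkn1c higher and Cdkn2d (-0.51 ± 0.09) lower. The proliferation genes Mki67 (-0.15), Top2a (-0.07) and Pcna (0.06) did not pass. The number lower was 8 without FLT3-ITD/Runx1-HET library 3 and without wild-type library 1. Of 21 apoptosis genes 4 rose and 2 fell. The effector Bax rose (0.49 ± 0.08, adjusted p = 3.94e-05). The number that rose was 2 without FLT3-ITD/Runx1-HET library 3 or 4, wild-type library 1 or a filter on low counts, and 1 without wild-type library 4. The number that fell was 1 without FLT3-ITD/Runx1-HET library 1 or 3 or wild-type library 4, and 0 without FLT3-ITD/Runx1-HET library 4 or with the compared groups fitted alone.

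Markers of other cell types were read for cells that a progenitor fraction could still hold. Of 13 tested mast cell, basophil and eosinophil markers 4 fell and 1 rose, and their summed level was 87.3 to 114 CPM in FLT3-ITD/Runx1-HET, against 326 to 981.5 CPM in wild type. Epx, eosinophil peroxidase, had 0.661, 0.613, 0.149 and 0.469 CPM in the FLT3-ITD/Runx1-HET libraries, against 62.1, 65.5, 174 and 44.8 CPM in the wild-type libraries. Prg2, the eosinophil major basic protein, had 7.98, 1.72, 1.10 and 2.17 CPM in the FLT3-ITD/Runx1-HET libraries, against 194, 145, 674 and 188 CPM in the wild-type libraries. Both were apart from wild type in all 4 libraries and fell with log2 fold changes of -7.51 ± 1.72 and -6.49 ± 1.35 (adjusted p = 0.00373 and 0.00178). Without wild-type library 3 these were -6.91 and -5.71, Prg2 was at -7.51 without FLT3-ITD/Runx1-HET library 1, and Epx was at -8.16 with the replicate block. In FLT3-ITD, Epx had 0.146, 0.0541, 0.179 and 18.8 CPM, low in 3 libraries and not in library 4. The basophil protease Mcpt8 rose (1.53 ± 0.38, adjusted p = 0.00444).

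Of 13 tested macrophage and monocyte markers 5 fell and 1, Adgre1, rose. Their summed level was higher in FLT3-ITD/Runx1-HET, at 161 to 227 CPM, against 117 to 145 CPM in wild type. Without Adgre1 the sums were 75.5 to 94.1 CPM in FLT3-ITD/Runx1-HET, against 115 to 143 CPM in wild type. Vcam1, an adhesion molecule of resident macrophages and stroma, had 2.27, 2.02, 1.45 and 2.70 CPM in the FLT3-ITD/Runx1-HET libraries, against 18.1, 13.1, 9.99 and 16.6 CPM in the wild-type libraries and fell (-2.78 ± 0.41, adjusted p = 4.11e-05). The complement subunit C1qb fell (-2.47 ± 0.34, adjusted p = 3.37e-06), and so did Csf1r. Of 9 tested dendritic cell markers 5 fell and 1, the lectin Clec10a, rose (3.29 ± 0.23, adjusted p = 3.39e-11). The chemokine receptor Ccr7 fell (-2.68 ± 0.25, adjusted p = 3.89e-09). Of 8 tested mature neutrophil markers edgeR called 0, as did DESeq2, with 1 lower at an unadjusted p under 0.05 and 1 higher without wild-type library 2. The levels were 36.2 to 64.3 CPM in sum in FLT3-ITD/Runx1-HET, against 14.6 to 151 CPM in wild type.

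Of 10 tested endothelial and stromal markers 4 rose and 1 fell. The count of higher members was 2 with a minimum mean of 1 CPM, without FLT3-ITD/Runx1-HET library 2 and without wild-type library 3 or 4. Besides Sparc, Col3a1, a fibrillar collagen, had 5.76, 11.8, 1.45 and 6.15 CPM in the FLT3-ITD/Runx1-HET libraries, against 2.06, 1.38, 1.29 and 1.26 CPM in the wild-type libraries. FLT3-ITD/Runx1-HET library 3 lay within the wild-type values and the others above them, and Col3a1 rose (2.06 ± 0.45, adjusted p = 0.00125). The endothelial and platelet adhesion molecule Pecam1 fell (-0.51 ± 0.10, adjusted p = 0.000333). In sum these markers were at 275 to 320.3 CPM in FLT3-ITD/Runx1-HET and 244 to 280.4 CPM in wild type. Without Sparc the sums were 187 to 226 CPM in FLT3-ITD/Runx1-HET, against 241 to 276 CPM in wild type. Of 7 tested erythroid cell markers 1 rose and 2 fell, with a median of -0.751. The fall was called for the heme synthesis enzyme Alas2 (-2.005 ± 0.70, adjusted p = 0.0375) and the membrane protein Epb42 (-1.98 ± 0.71, adjusted p = 0.0429). EdgeR called 0 lower without FLT3-ITD/Runx1-HET library 1, 2 or 4, without wild-type library 1, with a minimum mean of 1 CPM, with a sex term or with the compared groups fitted alone, and 1 lower without wild-type library 3 or 4 or with the replicate block. Without wild-type library 1 Alas2 was at -0.15 (adjusted p = 0.887). The globin gene Hbb-bt, whose reads can be shared with its near-identical neighbour Hbb-bs, had 218, 173, 121 and 219 CPM in the FLT3-ITD/Runx1-HET libraries, against 86.2, 97.3, 121 and 107 CPM in the wild-type libraries and rose (0.83 ± 0.20, adjusted p = 0.0047), while Hbb-bs did not pass (-0.68). The part of any admixed cells in the results above was not tested.

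Set against FLT3-ITD alone, FLT3-ITD/Runx1-HET differed in 1037 genes (7.2%), of which 476 (3.31%) were higher and 561 (3.9%) lower, and against Runx1-HET alone in 2140 (14.9%), of which 963 (6.69%) were higher and 1177 (8.18%) lower. The comparisons share the FLT3-ITD/Runx1-HET libraries. The count against FLT3-ITD was 624 without FLT3-ITD library 2, 687 without FLT3-ITD/Runx1-HET library 2, 638 without its library 4 and 1621 without its library 3. All FLT3-ITD libraries had more Y-linked than Xist counts. With a term for this, 739 genes differed from FLT3-ITD, of which 307 were higher and 432 lower. There were 304 genes higher and 332 lower than in wild type, FLT3-ITD and Runx1-HET alike. Of the 28 lymphoid genes 20 were lower than in FLT3-ITD and 25 lower than in Runx1-HET.

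Among genes that stood beyond both single genotypes, Spp1, the matrix cytokine osteopontin, had 22.8, 22.3, 27.6 and 34.6 CPM in FLT3-ITD/Runx1-HET libraries, 4.93, 4.33, 5.44 and 5.54 CPM in FLT3-ITD, 6.31, 4.38, 4.64 and 3.18 CPM in Runx1-HET and 5.69, 4.40, 5.47 and 7.53 CPM in wild type. The other 3 genotypes overlapped and FLT3-ITD/Runx1-HET was above all of them (2.41 ± 0.22 against FLT3-ITD, adjusted p = 1.28e-08). Akr1c12, an aldo-keto reductase with close paralogs, and the protease-activated receptor F2rl2 followed the same order, at 2.40 ± 0.23 and 2.15 ± 0.23 against FLT3-ITD. Slc40a1, the iron exporter ferroportin, had 6.32, 5.89, 4.78 and 5.63 CPM in FLT3-ITD/Runx1-HET, 22.6, 43.8, 28.6 and 35.4 CPM in FLT3-ITD, 34.2, 36.2, 24.99 and 32.5 CPM in Runx1-HET and 43.4, 31.3, 25.3 and 29.2 CPM in wild type. All 12 libraries of the other genotypes were above the highest FLT3-ITD/Runx1-HET library (-2.52 ± 0.28 against FLT3-ITD, adjusted p = 2.56e-06). Hmox1, the heme oxygenase, was lower than in FLT3-ITD (-2.55 ± 0.33) and Runx1-HET (-3.23 ± 0.33). Tcrg-C1 and Adgre1 formed a graded order, with FLT3-ITD averaging 10.7 ± 2.84 and 19.95 ± 4.67 CPM (SD, n = 4) between FLT3-ITD/Runx1-HET and wild type.

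**Figure D5:**
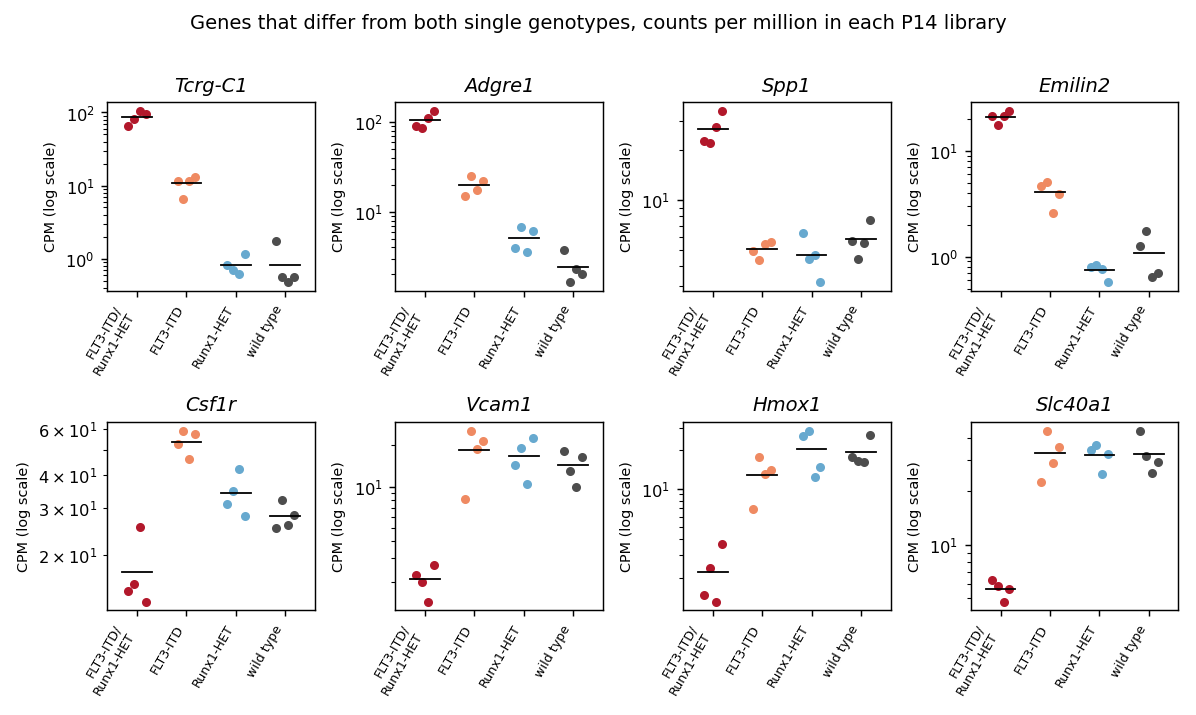
CPM on a log scale (y axis) of 8 genes in each P14 library of FLT3-ITD/Runx1-HET, FLT3-ITD, Runx1-HET and wild type (x axis), with 1 point per library and a black bar at the group mean. The FLT3-ITD/Runx1-HET libraries were highest in the upper row and lowest in the lower row, except for Csf1r, which was lowest there by group mean alone, with Spp1 at 22.3 to 34.6 CPM against 3.18 to 7.53 CPM in the other genotypes.

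The difference between the combined effect and the sum of both single effects on the log2 scale passed in 242 genes (1.68%), with 93 above the sum (0.646%) and 149 below it (1.04%). Without FLT3-ITD/Runx1-HET library 3 the number was 401, DESeq2 called 374 and the fit with a sex term called 201. Above the sum were Tcrg-C1 (3.06 ± 0.48, adjusted p = 0.000383), Emilin2 (2.91 ± 0.57, adjusted p = 0.00334) and Spp1 (2.72 ± 0.31, adjusted p = 2.52e-06). Below it were Dntt (-3.19 ± 0.28, adjusted p = 5.89e-07), Rag2 (-3.67 ± 0.38, adjusted p = 4.12e-06) and Ccr9 (-3.79 ± 0.61, adjusted p = 0.000865). Without FLT3-ITD/Runx1-HET library 1 the difference of Ccr9 was -4.69, and without wild-type library 1 that of Tcrg-C1 was 2.41. Dntt averaged 109.7 ± 24.1 CPM in FLT3-ITD/Runx1-HET, 663 ± 65.4 CPM in FLT3-ITD, 1166 ± 101 CPM in Runx1-HET and 771 ± 154 CPM in wild type (SD, n = 4 each). Csf1r, the receptor for macrophage colony-stimulating factor, had 14.5, 15.5, 25.4 and 13.2 CPM in FLT3-ITD/Runx1-HET, 52.4, 59.2, 46.2 and 57.3 CPM in FLT3-ITD, 31.2, 35.00, 42.4 and 28.04 CPM in Runx1-HET and 25.2, 32.3, 25.9 and 28.2 CPM in wild type. FLT3-ITD was highest in every library, and the lowest FLT3-ITD/Runx1-HET values lay below all others. In the lymphoid list 15 of 28 members lay below the sum.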

How the data were processed

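The deposited values are counts of reads per gene that the authors made from total RNA of hematopoietic progenitors, with STAR 3.0.4, Subread and featureCounts 1.4.5 named in the submitters' processing notes. The genome build, the annotation and the use of strand are not given in the sources used here, so reads of overlapping, antisense or near-identical genes may be shared. Gene symbols and coordinates come from a GRCm38 annotation (40340 of 41388 IDs matched), and promoter windows from RefSeq. All 24 P14 libraries of 6 groups were fitted together in R 4.3.3 with edgeR 4.0.16 (TMM, filterByExpr, robust glmQLFit and glmQLFTest). Limma 3.58.1 was loaded with it. A prior count of 2 entered only the log2 CPM values and the correlations between libraries, and fold changes used edgeR's default. The filter kept 14394 genes with 99.9% of counts. The biological coefficient of variation was 0.164. P-values were adjusted by Benjamini-Hochberg with a threshold of 0.05. The ± beside a log2 fold change is an approximate SE. It is the absolute log2 fold change divided by the square root of the F statistic of its test. It was not estimated directly and may be too small for genes with few counts. Contrasts set FLT3-ITD/Runx1-HET against wild type, FLT3-ITD and Runx1-HET and tested the interaction. The steps were tried on simulated counts with 200 changed genes, all with a mean CPM of at least 2 on the log2 scale. That setting does not cover genes with fewer counts or changes in as many genes as were called here.

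Genes and lists were chosen with earlier results of these data known. Genes were named by rule: Flt3 and Runx1, the 12 highest and 12 lowest log2 fold changes among called genes whose mean log2 CPM reached 2, with no overlap between the groups, per list up to 4 called members with the largest fold change in each direction, the 8 highest and 8 lowest genes beyond both single genotypes, and the 6 highest and 6 lowest called interactions (both with the same expression minimum). Not every gene so named is printed. Another 17 genes, and members given as not passing, were chosen after their values were seen. Counting intervals cover counting error only. Alternatives were DESeq2 1.42.0, other scalings and filters, a sex term, a replicate block, a fit of the compared groups alone and each library left out.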

Additional observations from a re-analysis of the deposited data

Results flagged for a closer look

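In 14 of 125 groups of 4 libraries whose values are printed, 1 library stood apart from the other 3 by Dixon's test, which chance does in about 1 in 20 groups. In FLT3-ITD/Runx1-HET these were library 2 for AI593442 (149 CPM), Bcl6 (0.674 CPM) and Dntt (145 CPM), library 1 for Ccr9 (0.708 CPM), Cdk6 (970 CPM), Cish (107 CPM) and Prg2 (7.98 CPM), and library 3 for Socs2 (315 CPM). In FLT3-ITD library 4 stood apart for Epx (18.8 CPM). In wild type these were library 1 for Cd48 (543 CPM), Col3a1 (2.06 CPM) and Tcrg-C1 (1.71 CPM) and library 3 for Epx (174 CPM) and Prg2 (674 CPM).

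The effect of FLT3-ITD in the presence of Runx1-HET differed from its effect without it in 242 genes by edgeR's interaction term. On the log2 scale the difference was 3.06 for Tcrg-C1, 2.91 for Emilin2, 2.72 for Spp1, -3.19 for Dntt, -3.67 for Rag2 and -3.79 for Ccr9.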

How the results depend on the processing

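The number of genes called in FLT3-ITD/Runx1-HET against wild type (3264) was 2248 with the compared groups fitted alone and 3527 with DESeq2, and 2307 (without wild-type library 3) to 3860 (without wild-type library 1) with 1 library left out. Against FLT3-ITD, leaving out 1 library gave 624 to 1621 genes called, 279 to 838 higher and 337 to 783 lower. The sex term gave 739 called against FLT3-ITD, 307 higher and 432 lower, and 201 called for the interaction. For the interaction, leaving out 1 library gave 168 to 401 genes called, 65 to 174 higher and 103 to 227 lower, and DESeq2 gave 374 called and 152 higher. Against Runx1-HET the range was 1611 to 2450. With the replicate block 3247, 1091 and 2146 genes were called against wild type, FLT3-ITD and Runx1-HET, and 223 for the interaction. Deviations of same-numbered libraries of FLT3-ITD/Runx1-HET and wild type correlated at -0.114 to 0.0183. Shared deviations by library number were thus not seen between these groups. In the other pairs of groups the correlations were -0.125 (library 2 of FLT3-ITD/Runx1-HET and FLT3-ITD) to 0.188 (library 3 of FLT3-ITD/Runx1-HET and Runx1-HET). The labels do not say whether libraries were paired. The cause of the shifts in gene counts was not tested. Over the named genes and all alternatives 4799 values kept their direction and side of the threshold, 215 kept their direction and no longer passed, and 29 kept it and newly passed. Another 54 values changed sign, none of them past the threshold in either fit. Genes with few counts, such as Blk and Trbc1, are limited by depth, and their ratios carry counting error only.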
